A study of Rattus norvegicus with 18 samples.

Results

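The collagen genes were followed in cultured rat hippocampal neurons in which a form of the transcription factor MEF2 could be switched on by a drug. All probe sets that the array's annotation assigns to exactly 1 gene symbol of the form Col, number, a, number were taken: 58 probe sets of 41 genes, out of 31042 probe sets tested, of which 20826 carried 1 symbol and named 14217 genes. For a gene with several probe sets, the one with the highest mean log2 intensity over the 18 arrays stood for it, and all 41 were tested without a filter on low values. The neurons grew in dissociated culture. They were infected with a lentivirus on day 3, and on day 10 they were exposed for 0, 1 or 2.5 h to the drug 4-hydroxytamoxifen (4OHT). One virus carried MEF2-VP16-ER, in which MEF2 is joined to the VP16 activation domain and to an estrogen receptor part that responds to 4OHT. The control virus carried MEF2deltaDBD-VP16-ER, which lacks the DNA-binding domain, so that every group expressed a fusion protein and the groups at 1 and 2.5 h of both viruses also met the drug. The 6 groups were MEF2-VP16-ER at 0, 1 and 2.5 h and control at 0, 1 and 2.5 h, each with 3 arrays that the labels call biological replicates. The MEF2 protein used, the promoter of the virus, and the strain and age of the rats are not given in the sources used here.

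Collagens are triple-helical proteins of the extracellular matrix, built from chains whose sequence repeats glycine at regular steps. Fibril-forming collagens give tissues tensile strength, collagen IV forms the sheets of basement membranes, and the short-chain collagens VIII and X form open networks. Col10a1 encodes collagen X, which is made by the enlarging (hypertrophic) chondrocytes of growing cartilage. In mice the MEF2 protein MEF2C is needed for that chondrocyte maturation and for Col10a1 expression there. In brain, collagens IV, XV and XVIII belong mainly to the basement membranes of vessels and meninges, while Col25a1 encodes a transmembrane collagen of neurons and Col19a1 is known from synapses.

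The stretch around the start of Col10a1 (RefSeq, GRCr8, chr20:39737286-39737585, + strand) runs from 250 bases before to 50 bases after the annotated start. Col10a1 itself spans chr20:39737536-39744518. It is shown because Col10a1 is the collagen with the largest induction at 2.5 h, and beside it stands the same window of Col13a1 (chr20:30466751-30467050, - strand), the 1 collagen window that holds the full MEF2 consensus. Col13a1 encodes a transmembrane collagen. Capitals mark each TANNNNTA, the spaced TA pair at the centre of the MEF2 consensus.
Col10a1: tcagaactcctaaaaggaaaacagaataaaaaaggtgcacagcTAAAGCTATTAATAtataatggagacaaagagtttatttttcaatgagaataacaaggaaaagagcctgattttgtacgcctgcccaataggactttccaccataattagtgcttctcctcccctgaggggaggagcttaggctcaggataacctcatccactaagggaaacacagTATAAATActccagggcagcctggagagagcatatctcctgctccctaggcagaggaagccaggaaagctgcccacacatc
Col13a1: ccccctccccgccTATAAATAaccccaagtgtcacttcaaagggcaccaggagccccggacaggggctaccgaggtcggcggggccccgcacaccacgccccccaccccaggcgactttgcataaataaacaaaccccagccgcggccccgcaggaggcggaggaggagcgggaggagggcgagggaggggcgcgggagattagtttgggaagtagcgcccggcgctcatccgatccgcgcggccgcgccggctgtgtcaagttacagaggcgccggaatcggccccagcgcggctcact
Windows were found for 32 of the 41 genes, 35 windows in all. The full MEF2 consensus was searched on both strands. It lay in 1 of the 35 collagen windows, that of Col13a1, and in 3.29% of all 33469 windows. The window of Col10a1 did not hold it. Its 3 matches to TANNNNTA began 207, 201 and 31 bases before the start, and the first and second overlap. The match at 31 bases also holds TATAAA, the TATA box, which lay in 4 collagen windows and in 14.2% of all windows. TANNNNTA lay in 9 of the 35 collagen windows and in 40.2% of all. These matches describe letters in the windows and show no binding. Col13a1 itself was dim, with a mean intensity of 29.8, and was at 0.00 ± 0.07 in the comparison at 2.5 h described below for Col10a1.

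Intensities are linear, as deposited, with array medians of 190.3 to 196.9. Differences are of log2(intensity + 16), which understates changes of dim probe sets. The words rose, fell and changed are kept for genes with a limma adjusted p under 0.05, adjusted over 31042 probe sets. Among markers of the labelled cell type, the neuron genes Map2 and Tubb3 had mean intensities of 12880 and 9279 over the 18 arrays. The astrocyte gene Gfap had 8529, the fibroblast genes Dcn and Lum had 641.3 and 41.56, and the cartilage genes Comp and Mmp13 had 51.97 and 29.95. Other listed markers differed from these. The fibroblast markers Vim and Fn1 had 5796 and 1238, the cartilage genes Vegfa and Sox6 1177 and 1050, and the neuron marker Syt1 649.8. All 15 neuron markers lay above the median level of all probe sets, as did 8 of 10 astrocyte markers. Of 16 fibroblast markers 8 did so, and of 16 cartilage genes 3. Probe sets differ in how brightly they report, so these intensities give neither the order of transcript levels nor the share of a cell type. In RNA from a whole culture, fewer cells of a type and less RNA per cell cannot be told apart. Such RNA also does not show which cells a change lies in, so the word neurons below stands for the labelled culture.

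Col10a1 rose in MEF2-VP16-ER neurons and was not called in control neurons. In MEF2-VP16-ER neurons its intensity was 62.7, 64.4 and 63.0 at 0 h, 112, 79.3 and 116 at 1 h, and 539, 264 and 473 at 2.5 h in replicates 1, 2 and 3. In control neurons it was 67.0, 65.7 and 55.2 at 0 h, 63.6, 60.1 and 58.5 at 1 h, and 64.5, 68.4 and 58.2 at 2.5 h. The 3 arrays with MEF2-VP16-ER at 2.5 h stand above all others, those at 1 h come next, and the remaining 12 arrays lie together between 55.2 and 68.4. Replicate 2 was the lowest of its group at both times. The group mean was 425 ± 144 with MEF2-VP16-ER at 2.5 h and 63.7 ± 5.13 in control neurons at 2.5 h (SD, n = 3 each).

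The comparison at 2.5 h asked which collagens responded to 4OHT more strongly with MEF2-VP16-ER than with the control construct. The 2.5 h minus 0 h difference with MEF2-VP16-ER minus that in control neurons is called the induction. The induction of Col10a1 was 2.39 ± 0.26 log2 units (SE, with 3 arrays per group, fold 5.26 on the log2(intensity + 16) scale, limma adjusted p = 0.00107), with a 95% interval of 1.84 to 2.95. A fit with the replicate number as a block gave 2.39 ± 0.23 (limma adjusted p = 6.7e-05), with a 95% interval of 1.90 to 2.89. The induction ranked 3 among all 31042 probe sets, from the highest. Within the replicate numbers it was 2.86, 1.75 and 2.57, so that all 3 were positive and replicate 2 was lowest. The change within MEF2-VP16-ER neurons was 2.41 ± 0.19 (adjusted p = 7.74e-06) and that within control neurons 0.02 ± 0.19 (adjusted p = 1.00). Leaving out any 1 of the 18 arrays kept the call. Leaving out all 6 arrays of replicate 1 ended it (2.16, adjusted p = 0.162), as did leaving out those of replicate 3 (2.31, adjusted p = 0.0797).

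**Figure D1:**
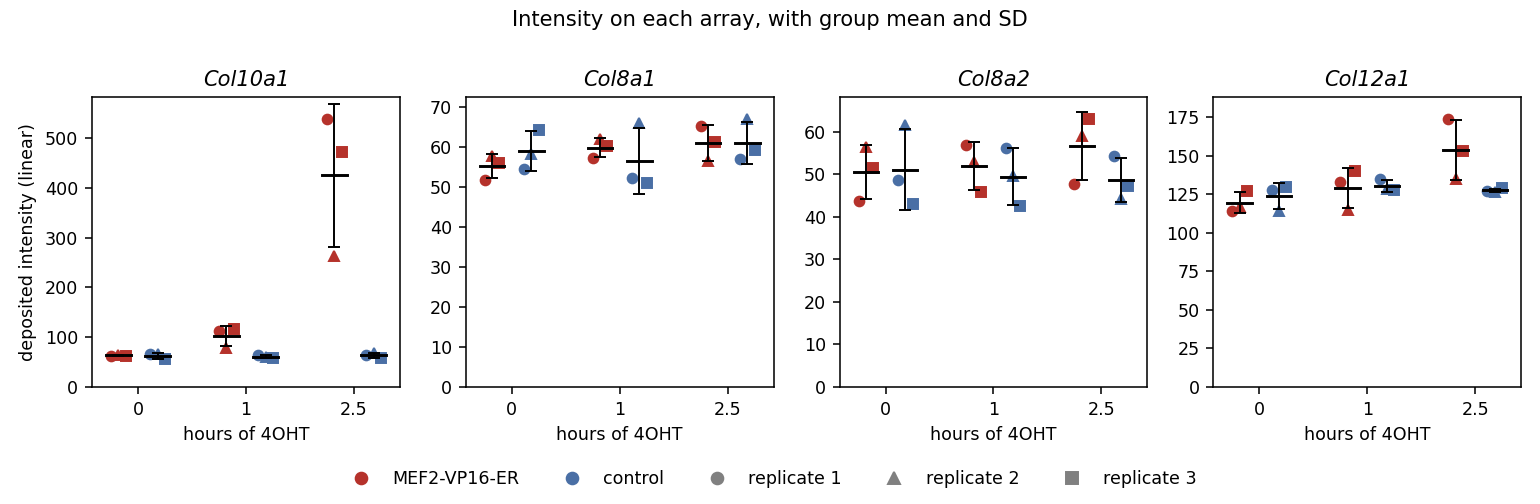
Deposited intensity (linear axis from 0, a scale of its own in each panel) against hours of 4OHT for Col10a1, Col8a1, Col8a2 and Col12a1, with MEF2-VP16-ER arrays left of control arrays at each time; symbols are the 3 replicates, horizontal bars the means and whiskers the SD. The 3 Col10a1 arrays with MEF2-VP16-ER at 2.5 h sit between 264 and 539, against 58.2 to 68.4 in control neurons at 2.5 h, while Col8a1 and Col8a2 overlap between constructs at that time.

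Of the 41 collagens, Col10a1 was called at 2.5 h and the other 40 were not, a share of 2.44%, where 0.177% of all probe sets were called (0.139% higher). With the replicate number as a block it was again 1, where 0.937% were. With 1 gene this share has little weight. The other 40 estimates lay between -0.20 and 0.42, with a median of 0.07, against a median of 0.00 over all probe sets. The lowest adjusted p among them was 0.898, and 0.281 with the replicate number as a block. A missed threshold does not show that a gene was unchanged, so the intervals matter. For the probe sets that stand for these 40 genes, the upper end of the 95% interval lay under 1 log2 unit, a 2-fold rise, in all 40 and under 0.5 in 34. Of the 17 other collagen probe sets it lay under 1 in 16, and the exception was 1 of Col11a1 (upper end 1.39). The least well bounded of the 40 were Col11a1 (upper end 0.91), Col25a1 (0.86) and Col5a2 (0.79). With the replicate number as a block their upper ends were 0.79, 0.22 and 0.66. All of these upper ends lay under 1.84, the lower end for Col10a1. The whole interval lay above 0 for Col12a1 (0.04 to 0.53) and Col2a1 (0.01 to 0.35). With the block that of Col11a1 (0.05 to 0.79) did so too. These intervals are not adjusted for the number of genes. Including Col10a1, 3 collagens had an unadjusted limma p under 0.05, and 4 with the block. The share of all probe sets under that unadjusted threshold was not counted.

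The difference itself was tested for each gene on the array-wise difference between Col10a1 and that gene. The induction of Col10a1 exceeded that of each of the 40 others, by 1.97 ± 0.38 log2 units for Col11a1, the closest, to 2.60 for Col26a1, with adjusted p between 1.10e-05 and 0.00134 (limma's linear model without moderation). Of all 31041 other probe sets, 99.9% also differed from Col10a1 in this way, so the separation is not particular to collagens.

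**Figure D2:**
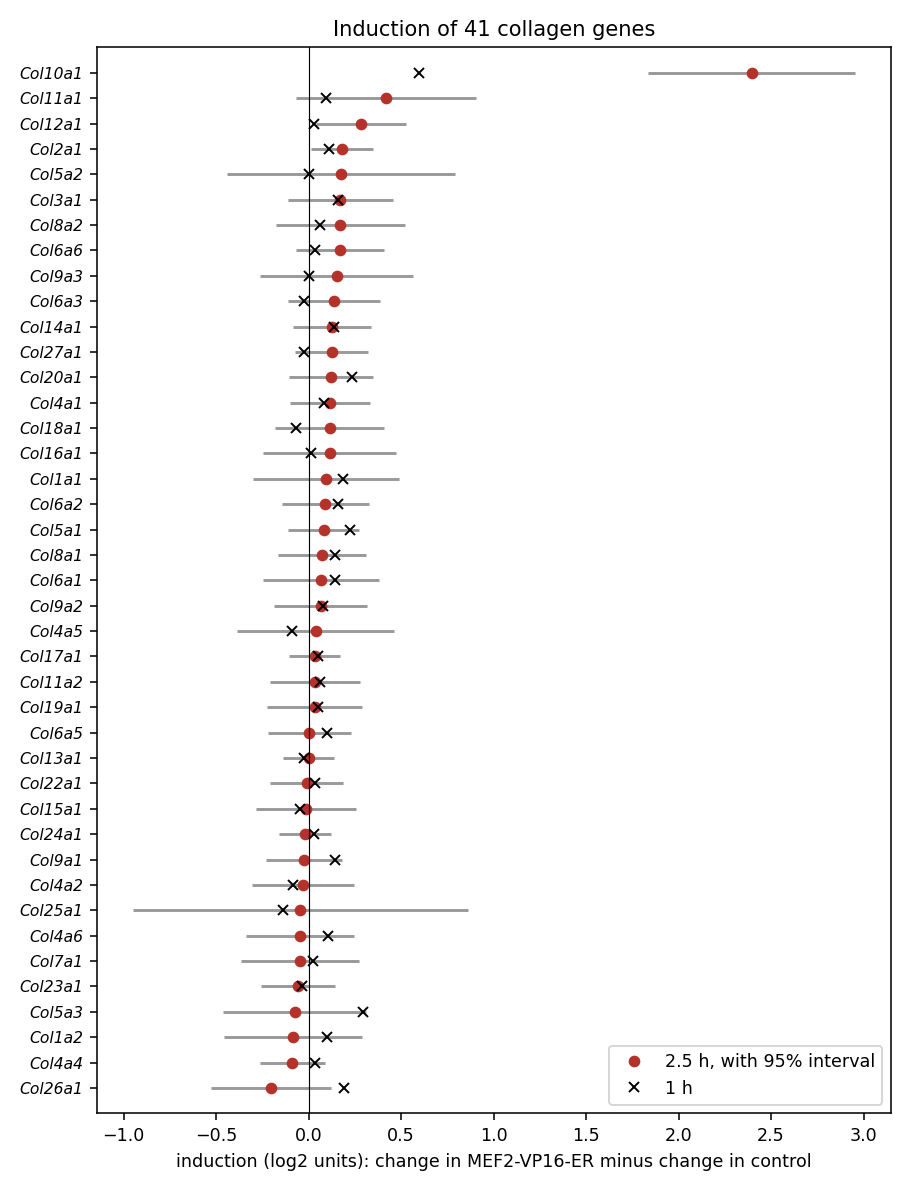
Induction in log2 units on the horizontal axis for each of the 41 collagen genes, sorted by the value at 2.5 h; dots are the estimates at 2.5 h with 95% intervals from limma and crosses the estimates at 1 h. Col10a1 stands at 2.39 and the next, Col11a1, at 0.42.

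The nearest relatives of collagen X were not called. Col8a1 and Col8a2 encode the 2 chains of collagen VIII, a short-chain collagen of the same class found under endothelia. Col8a1 had intensities of 65.4, 56.5 and 61.4 with MEF2-VP16-ER at 2.5 h and 57.1, 67.1 and 59.3 in control neurons at 2.5 h. Col8a2 had 47.7, 59.0 and 63.1 with MEF2-VP16-ER and 54.4, 44.3 and 47.2 in control neurons. The groups overlap for both genes. The inductions were 0.07 ± 0.11 for Col8a1 (adjusted p = 1.00) and 0.17 ± 0.16 for Col8a2 (adjusted p = 1.00). That of Col10a1 was larger than each by the test of the difference above.

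Col2a1 and Col11a1 encode chains of the cartilage fibrils that lie next to collagen X in the growth plate. Col2a1 was at 73.5, 74.9 and 84.2 with MEF2-VP16-ER at 2.5 h and at 76.2, 77.0 and 71.6 in control neurons at 2.5 h, groups that overlap. Its induction was 0.18 ± 0.08 (adjusted p = 0.960), and its other probe sets were at -0.08 and -0.11. Col11a1 was at 210, 222 and 334 with MEF2-VP16-ER at 2.5 h and at 213, 143 and 229 in control neurons, with replicate 3 highest under both constructs. Its induction was 0.42 ± 0.23 (adjusted p = 1.00). The 2 other probe sets of Col11a1 were at 0.57 ± 0.38 and 0.00 ± 0.06, so they disagreed, and neither passed. The first of these had 121, 156 and 332 with MEF2-VP16-ER at 2.5 h and 95.1, 110 and 99.0 with MEF2-VP16-ER at 0 h, without overlap and with replicate 3 far above the others. Its change within MEF2-VP16-ER neurons was 0.78 ± 0.27 (fold 1.72, limma adjusted p = 0.415, and 0.155 with the block).

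Col12a1 was the second collagen with a call in any comparison. It encodes collagen XII, which sits on the surface of collagen I fibrils. With MEF2-VP16-ER its intensity was 114, 117 and 127 at 0 h, 133, 115 and 140 at 1 h, and 174, 135 and 153 at 2.5 h. In control neurons it was 128, 114 and 130 at 0 h, 135, 129 and 128 at 1 h, and 127, 127 and 129 at 2.5 h. The arrays with MEF2-VP16-ER at 2.5 h lie above those at 0 h, and also above those of control neurons at 2.5 h. The 2.5 h minus 0 h change in MEF2-VP16-ER neurons was 0.32 ± 0.08 (limma adjusted p = 0.105); with the replicate number as a block it passed (adjusted p = 0.0137). It also passed without MEF2-VP16-ER replicate 2 at 2.5 h (0.40, adjusted p = 0.0298). The induction against control neurons was 0.28 ± 0.11 and did not pass with the block (adjusted p = 0.281). Its 2 other probe sets were at -0.06 and 0.02 for the change in MEF2-VP16-ER neurons and at -0.13 and 0.03 for the induction, so the 3 probe sets disagreed.

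Over time within MEF2-VP16-ER neurons, 1 of 41 collagens was called at 2.5 h against 0 h without the block, where 0.789% of all probe sets were called, and 2 of 41 (4.88%) with the block, where 2.33% were. In 4 collagens (9.76%) the 3 arrays at 2.5 h lay above the 3 at 0 h, namely Col10a1, Col11a1, Col12a1 and Col6a3 (0.13 ± 0.08, a chain of collagen VI), where 5.76% of all probe sets did so. In 0 collagens did they lie below, where 5.53% of all probe sets did. Within control neurons no collagen was called at 1 or 2.5 h by limma (0% of all probe sets at either time). At an unadjusted p under 0.05 there were 2 collagens at 1 h and 0 at 2.5 h. The share of all probe sets under that unadjusted threshold was not counted. With the block the calls among collagens in control neurons were also 0, where 0% of all probe sets were called at 1 h and 0.00322% at 2.5 h, so that these counts of 0 are at the background. The control arrays at 2.5 h lay below those at 0 h in 3 collagens (7.32%; 4.04% of all probe sets), Col2a1 (-0.09), Col14a1 (-0.07) and Col20a1 (-0.13), and above them in 0 (2.11% of all). At 1 h they lay below in 3 (4.45% of all), Col2a1 (-0.10), Col26a1 (-0.14) and Col6a2 (-0.21), and above in 0 (2.62% of all).

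At 1 h the same question was asked of the early change. Col10a1 had an induction of 0.60 ± 0.26 log2 units (fold 1.51, limma adjusted p = 0.996), and 0 of 41 collagens were called, where 0.00322% of all probe sets were. With the replicate number as a block, 0 collagens were also called, where 0.029% of all probe sets were. In each fit 3 had an unadjusted p under 0.05, for which the share of all probe sets was not counted. The arrays of Col10a1 did not overlap at 1 h: 112, 79.3 and 116 with MEF2-VP16-ER against 63.6, 60.1 and 58.5 in control neurons. An exact permutation test of 3 arrays against 3 gave p = 0.1 (two-sided), the smallest this design allows. The lack of overlap fixes this value, so the test adds nothing to it. Within the replicate numbers the induction at 1 h was 0.77, 0.35 and 0.68. The numbers were not taken to pair the arrays in this comparison, so these 3 values are only a description. Within MEF2-VP16-ER neurons 0 of 41 were called at 1 h against 0 h, with or without the block (0.187% and 0.0354% of all probe sets). There the arrays at 1 h lay above those at 0 h in 4 collagens (9.76%; 4.4% of all probe sets), which were Col10a1 and, with changes of 0.03 to 0.15, Col17a1, Col6a3 and Col9a1. They lay below in 0 collagens (5.43% of all).

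The other estimates at 1 h lay between -0.14 and 0.29, with a median of 0.06. After Col10a1 the highest were Col5a3 (0.29 ± 0.18) and Col5a1 (0.22 ± 0.09), chains of the fibril-regulating collagen V, Col20a1 (0.23 ± 0.11) and Col26a1 (0.19 ± 0.15). At 2.5 h these 4 stood at -0.08, 0.08, 0.12 and -0.20. The lowest at 1 h were Col25a1 (-0.14 ± 0.42), Col4a5 (-0.09 ± 0.20) and Col4a2 (-0.08 ± 0.13), and the lowest at 2.5 h were Col26a1 (-0.20 ± 0.15), Col4a4 (-0.09 ± 0.08) and Col1a2 (-0.08 ± 0.17). None of these passed. The inductions at 1 and 2.5 h share the 0 h arrays of both constructs.

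The induction of Col10a1 was larger at 2.5 h than at 1 h by 1.80 ± 0.26 log2 units (limma adjusted p = 0.0220), and within the replicate numbers by 2.09, 1.40 and 1.89. It was the 1 of 41 collagens called in this comparison, where 0.0419% of all probe sets were (0.399% with the block, which left the same 1 collagen). The estimates of the others ran from -0.39 for Col26a1 and -0.37 for Col5a3 to 0.33 for Col11a1. The call for Col10a1 was lost in 8 of the 18 fits that left out 1 array, and without all arrays of replicate 1 (adjusted p = 0.839) or replicate 3 (adjusted p = 0.479). The arrays at 0 h enter this comparison only through its error. Each of the 8 arrays was from 1 or 2.5 h. The 8 arrays were control 1 h replicates 1, 2 and 3 (adjusted p = 0.0877, 0.0701 and 0.0579), control 2.5 h replicates 1 and 3 (0.0514 and 0.0687), MEF2-VP16-ER 1 h replicates 1 and 2 (0.0549 and 0.0809) and MEF2-VP16-ER 2.5 h replicate 3 (0.0739).

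**Figure D3:**
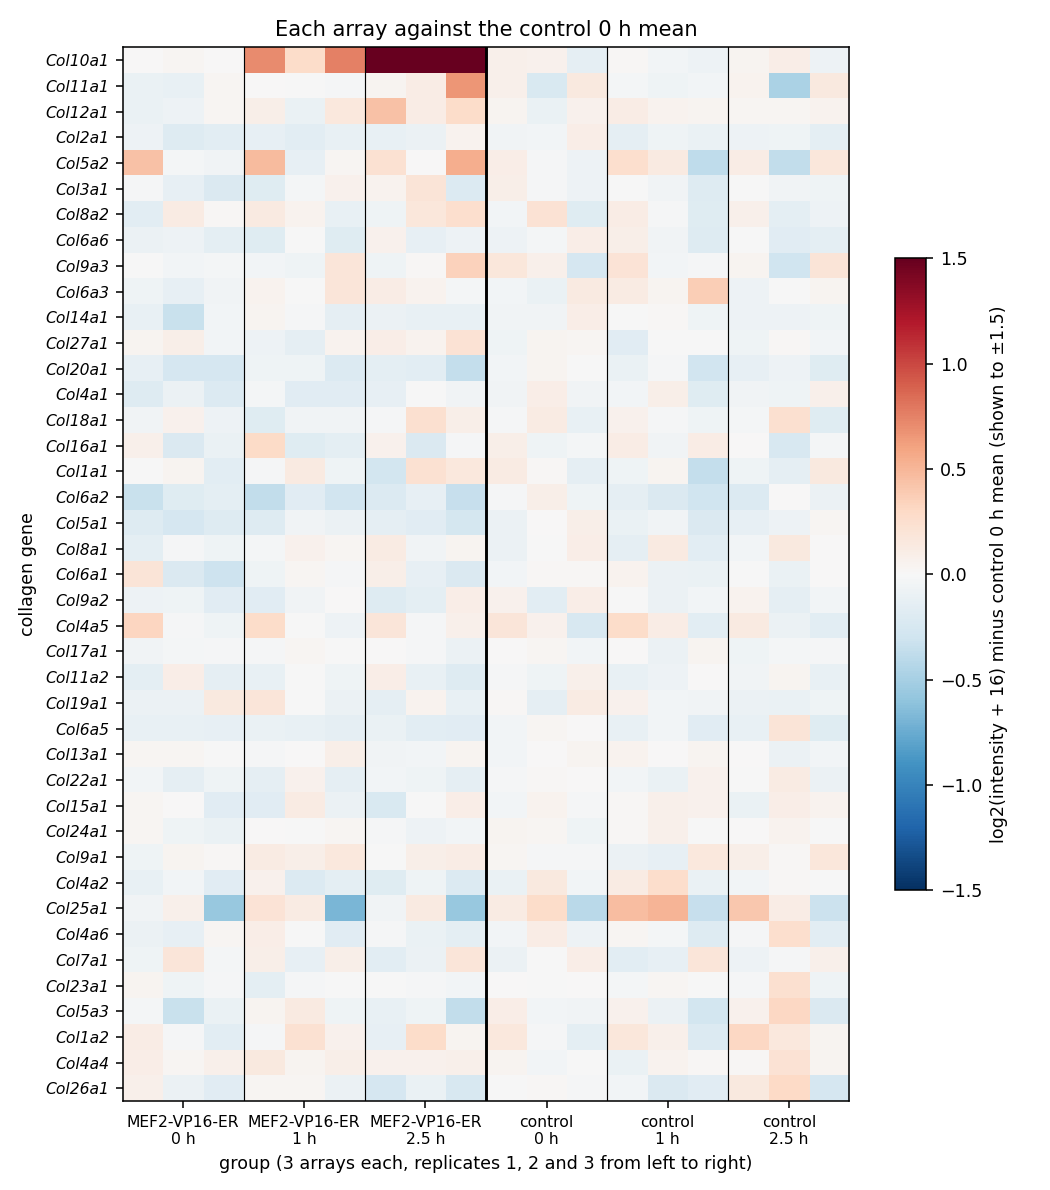
Each cell is 1 array's log2(intensity + 16) minus the gene's mean in control neurons at 0 h, for 41 collagen genes (rows, in the order of their induction at 2.5 h) and 18 arrays (columns, MEF2-VP16-ER left and control right, replicates 1 to 3 within a group); colours end at 1.5 log2 units. The top row, Col10a1, is darkest with MEF2-VP16-ER at 2.5 h, and Col25a1 is lower on the replicate 3 arrays of every group.

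Before 4OHT most collagens had lower estimates in MEF2-VP16-ER neurons than in control neurons, though none passed the test. Of 41, 34 were negative, with a median of -0.06 log2 units, where 46.1% of all probe sets were negative and their median was 0.01. None was called by limma, with or without the block (0.00322% and 0% of all probe sets called), and 6 had unadjusted p under 0.05. The share of all probe sets under that unadjusted threshold was not counted, so the 6 cannot be set against a background. In 8 collagens (19.5%) the 3 MEF2-VP16-ER arrays lay below the 3 control arrays, where 9.37% of all probe sets did so, and in 0 they lay above (8.06% of all). The lowest estimates were Col6a2 (-0.22 ± 0.08, adjusted p = 0.461), Col5a1 (-0.21 ± 0.06, adjusted p = 0.442) and Col20a1 (-0.21 ± 0.08, adjusted p = 0.465). Col5a1 had 728, 695 and 726 with MEF2-VP16-ER and 783, 834 and 886 in control neurons, but its other probe set had 182, 182 and 197 against 194, 185 and 182, which overlap. Col6a2 had 143, 160 and 164 with MEF2-VP16-ER and 181, 197 and 174 in control neurons, and its other probe set, with 137, 134 and 119 against 136, 120 and 119, also overlapped. At 0 h, 5 of 16 fibroblast markers were positive (median -0.06), 2 of 14 vessel markers (-0.06), 2 of 10 astrocyte markers (-0.06) and 1 of 12 microglia markers (-0.15). Of 10 oligodendrocyte lineage markers 6 were positive (0.02), and of 15 neuron markers 9 (0.05). Their part in the collagen values was not tested. Col10a1 was at 0.02 ± 0.19 before 4OHT.

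The same 0 h arrays enter every induction, where 28 of 41 collagens were positive at 2.5 h and 32 at 1 h. In the direct difference between constructs at 2.5 h, 18 of 41 were positive (median -0.02), and at 1 h 21 of 41 (median 0.00). Col10a1 was the 1 collagen called in the direct difference at 2.5 h (2.41 ± 0.19, adjusted p = 7.76e-06; 1.28% of all probe sets called, 3.49% with the block). At 2.5 h the MEF2-VP16-ER arrays lay above the control arrays in 3 collagens (6.54% of all probe sets), namely Col10a1, Col12a1 (0.24) and Col27a1 (0.15), and below them in 4 (5.99% of all), namely Col14a1, Col24a1, Col4a2 and Col5a1 (-0.14 to -0.03). At 1 h they lay above in 2 collagens, Col10a1 and Col11a1 (0.04), and below in 0, against 2.63% and 3.86% of all. The direct difference at 1 h called 0 collagens (0.0612% of all probe sets, 0.254% with the block).

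By class, the 11 measured fibril-forming collagens (Col1a1, Col1a2, Col2a1, Col3a1, Col5a1, Col5a2, Col5a3, Col11a1, Col11a2, Col24a1 and Col27a1) had a median induction of 0.09 at 2.5 h with 8 positive, and Col3a1, which encodes collagen III of soft tissues, was at 0.17 ± 0.13. Col1a1 and Col1a2, the chains of collagen I, were at 0.09 ± 0.19 and -0.08 ± 0.17. The 5 chains of basement membrane collagen IV (Col4a1, Col4a2, Col4a4, Col4a5 and Col4a6) had a median of -0.03 with 2 positive, from Col4a4 at -0.09 to Col4a1 at 0.12. Estimates for all 5 chains of collagen VI (Col6a1, Col6a2, Col6a3, Col6a5 and Col6a6), which forms beaded filaments around cells, were positive, with a median of 0.09 and none above 0.17. The 9 fibril-associated collagens (Col9a1, Col9a2, Col9a3, Col12a1, Col14a1, Col16a1, Col19a1, Col20a1 and Col22a1) had a median of 0.11 with 7 positive. The 4 transmembrane collagens (Col13a1, Col17a1, Col23a1 and Col25a1) lay between -0.06 and 0.03. The vessel-wall collagens Col15a1 and Col18a1, the second of which is the source of endostatin, were at -0.02 ± 0.13 and 0.11 ± 0.14. Col7a1, the anchoring fibril collagen of skin, was at -0.05 ± 0.15 and Col26a1 at -0.20 ± 0.15. None of these classes held a called gene apart from Col10a1 among the short-chain collagens. The 17 probe sets not chosen to stand for a gene lay between -0.13 and 0.57, and none was called.

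The order of probe set intensities among collagens is likewise no order of transcript levels. The brightest collagen probe sets were those of Col4a5 (mean 1603 over 18 arrays, range 1305 to 1940), Col4a2 (927), Col5a1 (769), Col16a1 (544) and Col5a3 (485). The dimmest were Col13a1 (29.8), Col24a1 (38.7) and Col6a6 (44.5). Col10a1, outside MEF2-VP16-ER neurons at 1 and 2.5 h, never passed 68.4.

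Some collagens differed between replicate numbers. Col25a1 ranged from 283 to 369 on the 6 arrays of replicate 3, against 448 to 650 on those of replicate 1 and 492 to 669 on those of replicate 2, without overlap. Its induction had the widest error of the 41 in the fit without a block, -0.04 ± 0.42, and was -0.04 ± 0.12 with the replicate number as a block. Averaged over the groups the replicates of Col25a1 spanned 0.69 log2 units, those of Col5a2 0.34 and those of Col4a5 0.33. Neuron markers had a median deviation of -0.09 in replicate 3, against 0.03 and 0.07 in replicates 1 and 2, and fibroblast markers also had -0.09, against 0.05 and 0.05. Oligodendrocyte lineage markers had 0.26 in replicate 3, against -0.12 and -0.08. The part of these in the Col25a1 values was not tested.

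Genes that make, bind or break down collagen were set beside the collagens from lists written from general knowledge. Of 22 measured processing enzymes and chaperones none was called at 2.5 h with or without the block (median 0.01, 13 positive). Of all probe sets 0.937% and 0.177% were, so lists of this size would hold few calls or none at the background. Pcolce, an enhancer of procollagen cleavage, was at 0.21 ± 0.10 and the cross-linking enzyme gene Lox at 0.19 ± 0.19. The prolyl hydroxylase gene P4ha2 was at -0.17 ± 0.13. Of 6 measured receptors none was called either (median 0.03, 4 positive), against the same background. The integrin gene Itgb1 was at 0.14 ± 0.14, Itga1 at 0.10 ± 0.10 and Adgrg1, a receptor for collagen III, at -0.11 ± 0.33. Of 12 measured genes of collagen breakdown none was called without the block, and 2 rose with it, where 0.937% of all probe sets were called with the block. Timp3, an inhibitor of matrix metalloproteinases, had 2509, 2084 and 2532 with MEF2-VP16-ER at 2.5 h and 1882, 1546 and 1902 in control neurons at 2.5 h, with every MEF2-VP16-ER array above every control array. Its induction was 0.68 ± 0.19 (limma adjusted p = 0.386, and 0.00130 with the block). Mmp16, a membrane-bound metalloproteinase gene, had 943, 824 and 946 with MEF2-VP16-ER and 613, 555 and 610 in control neurons, again without overlap. Its induction was 0.51 ± 0.14 (adjusted p = 0.293, and 0.0164 with the block), and its direct difference at 2.5 h passed without the block (0.59 ± 0.10, adjusted p = 0.00405). In that direct difference 1.28% of all probe sets were called. Ctsk, which encodes cathepsin K, was at 0.16 ± 0.12.

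Of 23 listed genes of growth plate cartilage other than Col10a1, 16 were measured, of which 10 had a positive induction at 2.5 h, with a median of 0.05. The count called was 0 of 16 with or without the block, where 0.937% and 0.177% of all probe sets were, so a list of this size would hold few calls or none at the background. Sox6, a chondrocyte transcription factor gene, was at 0.50 ± 0.58, the vessel growth factor gene Vegfa at -0.39 ± 0.12 and Pth1r, a receptor that holds back hypertrophy, at 0.16 ± 0.10. The summed intensity of these 16 genes was 3667 to 4643 with MEF2-VP16-ER at 2.5 h and 3501 to 3923 in control neurons at 2.5 h. No marker of another cell type had a called induction at 2.5 h: of 16 fibroblast markers (10 positive, median 0.08; Twist1 0.36 ± 0.16, Vim 0.27 ± 0.34, Dpt 0.23 ± 0.14), 14 vessel markers (8 positive, 0.02; Kdr 0.19, Tagln 0.19, Acta2 -0.10), 10 astrocyte markers (7 positive, 0.04; Slc1a2 0.41, Aldh1l1 0.23, Gfap -0.16), 12 microglia markers (7 positive, 0.13; C1qa 0.48, C1qb 0.30, C1qc 0.27) and 10 oligodendrocyte lineage markers (1 positive, -0.16; Pdgfra -0.57, Olig2 -0.44, Sox10 -0.32) none was called with or without the block. In the direct difference at 2.5 h, 3 of 12 microglia markers were positive (median -0.04), against 1 of 12 at 0 h. With the block, some markers were called in comparisons other than the induction. In these fits 2.33% of all probe sets were called within MEF2-VP16-ER neurons at 2.5 h, and 3.49% in the direct difference at 2.5 h. The fibroblast marker Twist1 rose within MEF2-VP16-ER neurons at 2.5 h (0.32, adjusted p = 0.0398) and was higher than in control neurons at 2.5 h (0.36, adjusted p = 0.0154), while Dcn was lower than in control neurons at 2.5 h (-0.58, adjusted p = 0.00106). Of the oligodendrocyte lineage, Olig2 fell within MEF2-VP16-ER neurons (-0.42, adjusted p = 0.0196) and Sox10 was lower than in control neurons at 2.5 h (-0.47, adjusted p = 0.0349). None of these passed without the block. In the direct difference at 1 h, 1 of 16 fibroblast markers was called lower with the block (0.254% of all probe sets called) and 0 without it. The summed fibroblast markers were 8400 to 11566 with MEF2-VP16-ER at 2.5 h and 7951 to 11505 in control neurons at 2.5 h. Of 15 neuron markers (8 positive, median 0.01; Camk2a 0.35, Nefm 0.27) none was called without the block, and Neurod6, a transcription factor gene of excitatory neurons, fell with it (-0.55, adjusted p = 0.0275). Within MEF2-VP16-ER neurons Neurod6 fell without the block too (-0.66, adjusted p = 0.0158). Of all probe sets 0.937% were called in the blocked induction and 0.789% in this change without the block. These medians stand against 0.00 over all probe sets.

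**Figure D4:**
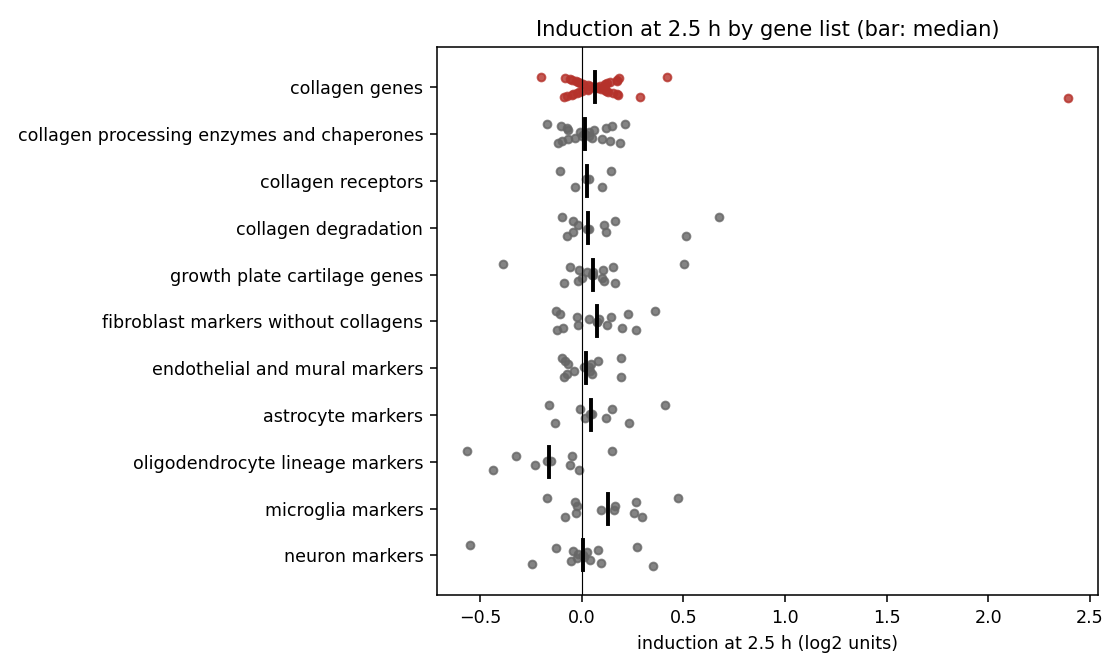
Induction at 2.5 h in log2 units for each measured member of the collagen set and of the gene lists (1 row per list, 1 dot per gene, bar at the median; vertical scatter within a row has no meaning). Col10a1 lies at 2.39, and the next highest dot of any list is Timp3 at 0.68.

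Of the MEF2 genes themselves, Mef2a had 3309, 3642 and 4001 with MEF2-VP16-ER at 2.5 h and 2813, 2164 and 2537 in control neurons at 2.5 h. Its induction was 0.37 ± 0.16 (adjusted p = 0.954), that of Mef2b -0.06 ± 0.16, that of Mef2c 0.06 ± 0.23 and that of Mef2d 0.17 ± 0.09, none of them called. The direct difference of Mef2a at 2.5 h passed (0.54 ± 0.11, adjusted p = 0.0241), where 1.28% of all probe sets were called. Whether these probe sets detect the introduced constructs was not examined.

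The genes whose levels ran most like those of Col10a1 were none of the collagens. Over 18 arrays and 14216 other genes, the highest Pearson correlations were with Ptpn21 (0.98), a tyrosine phosphatase gene, Gask1b (0.96), Pwwp3b (0.96), Zfp46 (0.96), Ctrb1 (0.95), which encodes chymotrypsinogen B, and Mat2b (0.94), a subunit of the enzyme that makes S-adenosylmethionine. Ptpn21 had 681, 445 and 939 with MEF2-VP16-ER at 2.5 h and 158, 150 and 182 in control neurons at 2.5 h, with replicate 2 lowest under both constructs. Mat2b had 4487, 3424 and 3547 with MEF2-VP16-ER and 1884, 1827 and 1674 in control neurons. Ctrb1 had 94.1, 79.3 and 105 against 62.7, 60.2 and 59.1. Their inductions at 2.5 h were 1.99 ± 0.29 for Ptpn21, 2.29 ± 0.28 for Pwwp3b, 1.36 ± 0.13 for Gask1b, 1.19 ± 0.16 for Zfp46 and 1.03 ± 0.18 for Mat2b, all called by limma, and 0.36 ± 0.10 for Ctrb1 (adjusted p = 0.391). Among the other 40 collagens the correlation with Col10a1 ran from -0.42 to 0.81, the highest being Col12a1, with a median of -0.07. These correlations share the 3 arrays on which Col10a1 is high and are a description. The inductions of genes chosen this way rest on the same arrays, so their calls are no separate support.

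**Figure D5:**
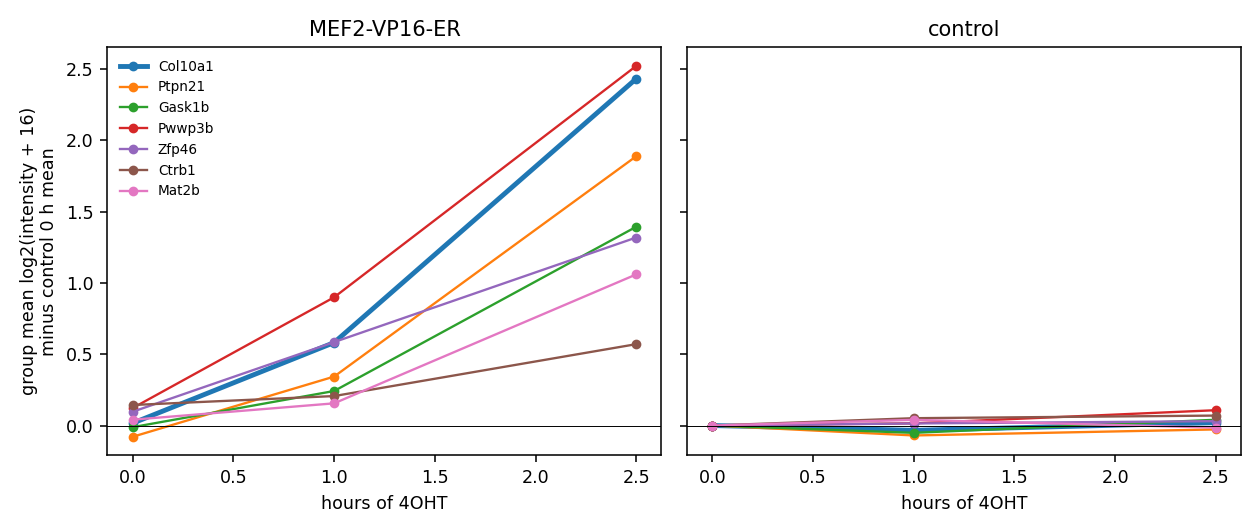
Group mean log2(intensity + 16) minus the control 0 h mean (vertical axis) against hours of 4OHT, in MEF2-VP16-ER neurons (left) and control neurons (right), for Col10a1 and the 6 genes with the highest correlation to it over 18 arrays. In control neurons all 7 lines stay near 0; with MEF2-VP16-ER, Col10a1 and Pwwp3b end highest and Ctrb1 lowest.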

How the data were processed

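RNA was labelled with biotin and hybridised to Affymetrix arrays, per the labels' protocols. The deposited values are 1 intensity per probe set and array on a linear scale; how the authors summarised and normalized them is not stated there, but array medians and upper quartiles (639.9 to 715.2) lie close together. The 57 control probe sets were left out. All 18 arrays entered 1 linear model of 6 group means on log2(intensity + 16) in limma 3.58.1 (R 4.3.3), with eBayes and Benjamini-Hochberg adjustment over 31042 probe sets in each of 8 contrasts and in the direct differences between constructs at 1 and 2.5 h; 12 residual degrees of freedom and a prior of 2.89 were used. Differences from Col10a1 were fitted on array-wise differences without moderation, since all share Col10a1. Symbols came from the array annotation, and all 41 matched RefSeq (GRCr8). The members, the 11 lists and the tests were chosen with earlier results of these data known.

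Genes named are all members called in any contrast with or without the replicate block, the 5 highest and 3 lowest inductions at each time, the 5 brightest and 3 dimmest collagens, Col8a1, Col8a2, Col2a1 and Col11a1, up to 3 members of each list by size and any called, Mef2a, Mef2c, Mef2d and the 6 genes most correlated with Col10a1. Col6a3, Col9a1, Col17a1, Col14a1, Col27a1, Col24a1, Col6a2, Col20a1, Col13a1, Col3a1, Col1a1, Col1a2, Col4a1, Col15a1 and Col18a1, Mef2b, Dcn and the other markers quoted with intensities, were added after their values were seen. The 11 lists hold 159 entries, of which 137 were measured.

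Replicate numbers were checked as a pairing through the correlation of residuals: 44 of 45 pairs of same-numbered arrays were above 0.1, among them all 18 pairs of the 2.5 h induction (lowest 0.21). The exception was MEF2-VP16-ER at 1 h against 0 h in replicate 2, at 0.07, so the numbers were taken to pair the arrays in the contrasts without that pair and not in the 1 h induction. The labels give the numbers and do not say what they share. The fit without a block is the one reported, also where the numbers pair the arrays, so its p-values and intervals leave that pairing out. The fits that left out arrays had no block either. The blocked p is given for the 2.5 h induction of Col10a1 and where it changes a call. Alternatives were pseudocounts of 1 and 64, quantile or median scaling of the arrays, a filter at the median level, eBayes with trend and robust, a contrast's own groups alone, the direct difference between constructs at 1 time, other choices of probe set, the replicate block, and leaving out arrays or replicate numbers. On simulated data for the 2.5 h induction (31042 probe sets, 200 changed), 50 of 50 changes of 2.4 log2 units, 39 of 50 of 1 and 15 of 50 of 0.5 were found, with 2 false calls. The blocked fit recovered 50, 47 and 34 at the same sizes and made 12 false calls. The changes were equal in all replicates and were added on the log2 scale to randomly drawn probe sets with normal noise. The rates therefore do not measure recovery for collagens, or for a response that varies between replicates. Figures were drawn with matplotlib 3.10.9.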

Additional observations from a re-analysis of the deposited data

Results flagged for a closer look

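The change of Col10a1 with 4OHT differed between the constructs, with an induction of 2.39 log2 units at 2.5 h by limma's interaction test, positive in 3 of 3 replicate numbers. The induction of Col10a1 also differed between the times, being 1.80 log2 units larger at 2.5 h than at 1 h, again in 3 of 3 replicate numbers. No other collagen differed in either way past the threshold. Apart from the fits that left out 1 array each, groups of 3 arrays were not tested for single outlying arrays.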

How the results depend on the processing

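The 3 arrays per group limit the precision, and for probe sets as dim as most collagens the log scale compresses changes. Signal over background is not given per probe set, so no floor could be set. The induction of Col10a1 at 2.5 h stayed between 1.88 and 2.64 log2 units under the 8 alternatives that left out no replicate. It stayed past the threshold in all 8 (limma adjusted p 7.76e-06 to 0.00845), including the fit of its own groups alone. When arrays were left out it lay between 2.16 and 2.72. The call was lost without replicate 1 and without replicate 3, and kept without replicate 2, each a fit of 12 arrays. The number of collagens called was then 0 to 1. The larger induction at 2.5 h than at 1 h was 1.60 to 2.09 when arrays were left out (collagens called 0 to 1), and in the fit of its own groups alone it was 1.80 with adjusted p = 0.232 and 0 collagens called, where fewer arrays enter the fit. Among probe sets above the median level 0 collagens were called at 2.5 h, 0 between the times and 0 within MEF2-VP16-ER neurons, because Col10a1 lies below that level and was not tested there. Within MEF2-VP16-ER neurons the change of Col10a1 at 2.5 h was 2.21 to 2.72 when arrays were left out; the collagens called were 2 with the replicate block and 1 to 2 when arrays were left out. The block changed no other collagen count. Uncalled values of Col10a1 near 0 changed sign when arrays were left out: the difference between constructs at 0 h ran from -0.053 to 0.063, and the change in control neurons from -0.050 to 0.070 at 2.5 h and from -0.10 to 0.0068 at 1 h. From 39 to 40 collagens differed from Col10a1 when arrays were left out. The filter on dim probe sets could give no value for Col10a1 or its differences, and trend and robust eBayes do not apply to the unmoderated differences. All other alternatives for these results kept direction and side of the threshold, the median over all probe sets lying within 0.1 of 0 in each contrast.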
